A study of Bos taurus with 29 samples.

Results

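RAB proteins are the small GTPases that give each membrane compartment its identity and its traffic, and the 51 RAB genes of cattle oocytes are described here across 3 groups of oocytes. They are all rows, of 13502 in the deposited table, whose gene name is RAB followed by a number and at most a letter and a further digit. Membership rests on the name alone, while the family itself was picked with earlier results of these data known. A filter on low values (at least 1 CPM, the count scaled to the total reads of the library, in at least 6 oocytes) kept 11852 genes and 48 of the 51. RAB3A, RAB29 and RAB39B did not pass it.

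A RAB protein cycles between an inactive form bound to GDP, kept in the cytosol by a dissociation inhibitor (GDI), and an active form bound to GTP that sits on a membrane by its prenyl tail. Exchange factors load GTP and so switch a RAB on, GTPase-activating proteins switch it off, and the active form recruits effectors such as tethers and motors. In an oocyte these proteins serve the secretion of the zona and of cortical granules, the uptake and recycling of surface receptors, and the delivery of material to lysosomes. In mouse oocytes vesicles that carry RAB11A are known to organise the actin network, and RAB3A and RAB27A have been tied to cortical granules.

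Each library was made from a single wild-type cattle oocyte. Germinal vesicle oocytes (GV) had not resumed meiosis and were not cultured. Oocytes matured conventionally (IVM) spent 22 h, within their cumulus cells, in TCM199 with serum, 50 ng/ml EGF and 5 µg/ml FSH. Oocytes of the third group (CNP_IVM) first spent 6 h in that medium without EGF and with 200 nM C-type natriuretic peptide, a follicular peptide that holds oocytes in arrest, and then the same 22 h. Both cultured groups were stripped of cumulus cells afterwards and taken at metaphase II, judged by a polar body. Values were at hand for 7 GV, 8 IVM and 7 CNP_IVM oocytes. The labels name no donor animal or culture, so each group counted as 1 sample, no test was made, and every statement describes these oocytes only. CNP and a total of 28 h in culture against 22 h cannot be told apart.

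Library totals were 27610555 to 36698324 reads in GV, 20159662 to 39340040 in IVM and 34835906 to 39089848 in CNP_IVM oocytes. GV replicate 9 stood apart: its title says GV while its treatment field says in vitro maturation, its Spearman correlation with the other GV oocytes over genes was 0.761 to 0.790 against 0.951 to 0.978 among those 6, and 9381 of its genes reached 1 CPM against 11311 to 11798. Counts against GV are therefore given with and without it, and so is the value of a RAB or pathway gene wherever its absence ended or made a 2-fold call, turned a direction or moved a mean or a fold by over 1.5 times. Of 13 oocyte markers 12 were in the table and all 12 averaged at least 1 CPM in each group, with sums of 10638 to 16463, 9107 to 17094 and 11161 to 16622 CPM in GV, IVM and CNP_IVM oocytes. Of 20 cumulus and granulosa markers 16 were in the table, with sums of 688 to 1192, 406 to 717 and 271 to 355 CPM. STAR made up most of the GV and IVM sums and averaged 657, 316 and 93.9 CPM in GV, IVM and CNP_IVM. Genes of cumulus expansion on the same list were highest outside GV. HAS2 was at 16.3, 77.1 and 118 CPM, PTGS2 at 13.4, 38.004 and 37.6 CPM and TNFAIP6 at 0.237, 0.497 and 1.45 CPM. VCAN (36.5, 47.7 and 30.8 CPM) and PTX3 (4.84, 5.21 and 4.41 CPM) were highest in IVM and lowest in CNP_IVM. The receptor FSHR, which defines granulosa cells, averaged 0.275, 0.0864 and 0.0714 CPM. Of 11 blood and immune markers 6 were in the table, with sums of 175 to 364, 8.42 to 47.0 and 3.53 to 26.8 CPM, most of it from VWF, and CD68 was at 0 in all CNP_IVM oocytes. The sums of both marker lists of other cells were lower after culture, as were many RAB genes below. Markers such as HAS2, PTGS2 and TNFAIP6 were higher instead. The part of these other cells in the RAB differences was not tested.

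As a family, the RAB genes took a smaller share of the library after maturation. Their summed level was 4087 to 5446 CPM (median 4411) in GV, 3347 to 4072 CPM (median 3688) in IVM and 2913 to 3311 CPM (median 3205) in CNP_IVM oocytes. As shares of the library total, every cultured oocyte therefore lay below every GV oocyte, and every CNP_IVM oocyte below every IVM oocyte. The sums were not computed under the other scalings given further below. The median TMM factor, by which a library total is multiplied before scaling, was highest in GV and lowest in CNP_IVM oocytes. Such factors lower the GV sums and raise the CNP_IVM sums. The order of the groups above is therefore one of CPM only, and whether it holds under these factors was not tested. RAB11A alone took a median of 44.7%, 40.2% and 35.4% of these reads in the 3 groups. Without RAB11A the sums overlapped, at 2185 to 3506, 1971 to 2657 and 1790 to 2378 CPM. Without GV replicate 9 the GV sums were 4087 to 4565 CPM with RAB11A and 2185 to 2767 CPM, still overlapping the cultured groups, without it. SMART-Seq v4 primes on poly(A) and a CPM is relative to the library total, so the amount of a transcript, its tail and the rest of the library cannot be told apart in any of these values.

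**Figure D1:**
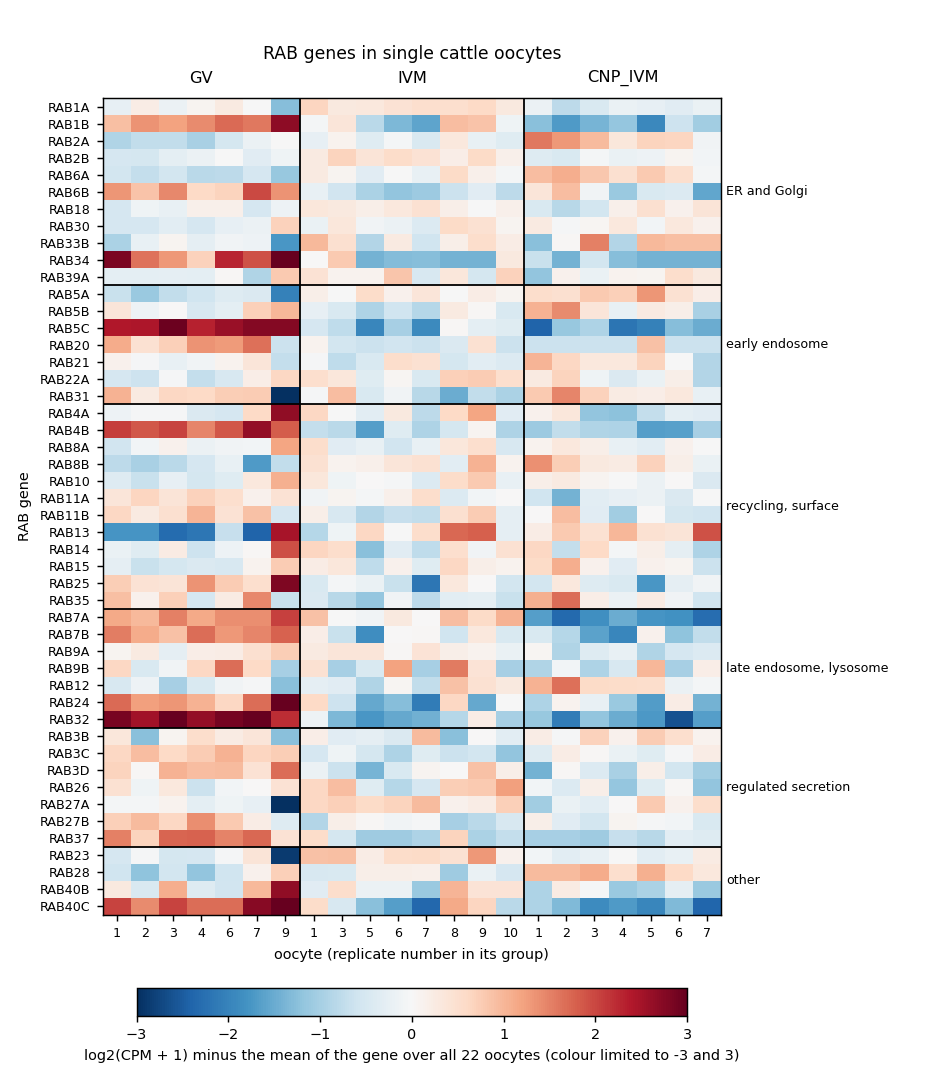
Level of the 48 RAB genes that passed the filter in each of the 22 oocytes (columns, grouped as GV, IVM and CNP_IVM, with replicate numbers). Colour is log2(CPM + 1) minus the mean of the gene over all oocytes, red for higher and blue for lower. RAB5C, RAB32 and RAB40C are red in all 7 GV oocytes, RAB7A is blue in all 7 CNP_IVM oocytes, and GV replicate 9 differs from the other GV oocytes in genes such as RAB13, RAB27A and RAB31.

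After conventional maturation the RAB genes lay on both sides of the GV level: RAB5C, RAB32, RAB4B, RAB34, RAB40C and RAB24 were between 4.73-fold and 12.9-fold lower than in GV oocytes on the scale used here, while RAB8B was 2.16-fold and RAB23 2.03-fold higher. That scale is the log2 difference between group means of CPM, each with 1 CPM added, which understates differences of genes with low counts. Of the 48 genes, 2 were at least 2-fold higher, where 15.9% of all genes were, and 15 were at least 2-fold lower, where 33.0% of all genes were. The 15 are RAB1B, RAB3C, RAB4B, RAB5C, RAB6B, RAB7B, RAB20, RAB24, RAB25, RAB27B, RAB32, RAB34, RAB35, RAB37 and RAB40C. The lower share of RAB genes, 31.3%, was thus near that of all genes, and the higher share, 4.17%, was below it. The median log2 difference was -0.23 over RAB genes and -0.28 over all genes. Without GV replicate 9 the counts were 2 higher (background 16.4%), now RAB8B and RAB13, and the same 15 lower (background 31.7%).

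By the stricter reading that no IVM oocyte overlaps a GV oocyte, 5 RAB genes lay above (RAB1A, RAB2B, RAB5A, RAB6A and RAB27A; 11.5% of all genes did) and 9 below (RAB3C, RAB4B, RAB5C, RAB6B, RAB7B, RAB24, RAB25, RAB32 and RAB40C; 19.9%). Without GV replicate 9 the same 5 lay above (14.0% of all genes) and RAB20, RAB27B and RAB37 joined the 9 below (25.6%). None of the 5 genes above reached 2-fold on the scale used here, so on it they were shifted by less than some of the lower genes but in every oocyte. With TMM factors RAB5A (1.25), RAB6A (1.04) and RAB27A (1.18) were past 2-fold, and by quantile normalization RAB5A (1.48) and RAB27A (1.13).

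After the culture with CNP the lower genes came to include RAB7A, the RAB of late endosomes, and the higher genes RAB2A, RAB5A and RAB6A. Against GV, 6 of the 48 genes were at least 2-fold higher (RAB2A, RAB5A, RAB6A, RAB8B, RAB12 and RAB28), where 15.3% of all genes were. At least 2-fold lower were 16 (RAB1B, RAB3D, RAB4A, RAB4B, RAB5C, RAB6B, RAB7A, RAB7B, RAB20, RAB24, RAB25, RAB32, RAB34, RAB37, RAB40B and RAB40C), 33.3% of RAB genes where 42.0% of all genes were. Medians were -0.31 over RAB genes and -0.61 over all genes. Without GV replicate 9, RAB13 joined the higher genes, 7 in all (background 14.9%), and RAB4A and RAB40B left the lower ones, 14 in all (background 40.5%). Both comparisons share the GV oocytes, so a gene shared by their lists is no separate evidence.

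No CNP_IVM oocyte overlapped a GV oocyte for RAB5A, RAB6A and RAB8B, which lay above (3 genes, background 12.9%), and for 13 genes that lay below (background 28.0%): RAB1B, RAB3C, RAB4B, RAB5C, RAB7A, RAB7B, RAB11A, RAB24, RAB25, RAB32, RAB34, RAB37 and RAB40C. Without GV replicate 9 the genes above were 7, with RAB2A, RAB13, RAB28 and RAB30 added (background 15.1%), and those below were 14, with RAB27B added (background 36.1%).

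Between the cultured groups, CNP_IVM against IVM, most RAB genes differed little, and RAB7A was the exception at 5.18-fold lower. RAB28 and RAB35 were at least 2-fold higher (2 of 48, background 1.86%), and RAB1B, RAB7A and RAB40C at least 2-fold lower (3 of 48, background 14.8%), which left 43 under 2-fold. The oocytes of the groups did not overlap for RAB28, which was higher (background 1.38%), and for RAB1A, RAB2B and RAB7A, which were lower (background 2.60%). RAB2A was at the line with a log2 difference of 0.9997, and leaving out any one of IVM replicates 3, 6 and 8 or CNP_IVM replicates 4, 5, 6 and 7 put it past 2-fold, at 1.01 to 1.11. Medians were -0.15 over RAB genes and -0.28 over all genes.

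How many RAB genes lie on each side rests on the scaling, and so does the share of all genes. Whether the oocytes of 2 groups overlapped for a gene was read on CPM only, and was not tested under the other scalings. Scaling by TMM factors moved the median of all genes from -0.28 to -0.05 for IVM and from -0.61 to -0.16 for CNP_IVM, each against GV, and from -0.28 to -0.06 between the cultured groups. Higher and lower RAB genes were then 6 and 13, 8 and 13, and 5 and 3, in place of 2 and 15, 6 and 16, and 2 and 3. The shares of all genes under TMM factors were 22.3% higher and 28.6% lower, 25.4% and 33.4%, and 3.86% and 8.37% in the same order. Quantile normalization gave 6 and 12, 12 and 11, and 6 and 1 RAB genes, where all genes gave 26.4% and 24.1%, 29.8% and 26.9%, and 3.91% and 5.94%. The genes past 2-fold under both of these and with each oocyte left out in turn for IVM against GV were 12 of the 15 lower and 0 of the 2 higher. For CNP_IVM against GV they were 10 of the 16 lower and 5 of the 6 higher, and for CNP_IVM against IVM 1 of the 3 lower, RAB7A, and 0 of the 2 higher. Adding 5 CPM in place of 1 draws genes of low level toward 0, and it also put genes under 2-fold. Between IVM and GV oocytes these were RAB8B, RAB20, RAB23, RAB27B, RAB35 and RAB37. Of them only RAB37 was among the 12 lower genes just counted. Between CNP_IVM and GV oocytes they were RAB3D, RAB4A, RAB12, RAB20, RAB28, RAB37 and RAB40B. Of them only RAB37 was among the 10 lower and only RAB28 among the 5 higher. Between the cultured groups they were RAB1B, RAB28, RAB35 and RAB40C, none of which had been counted.

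**Figure D2:**
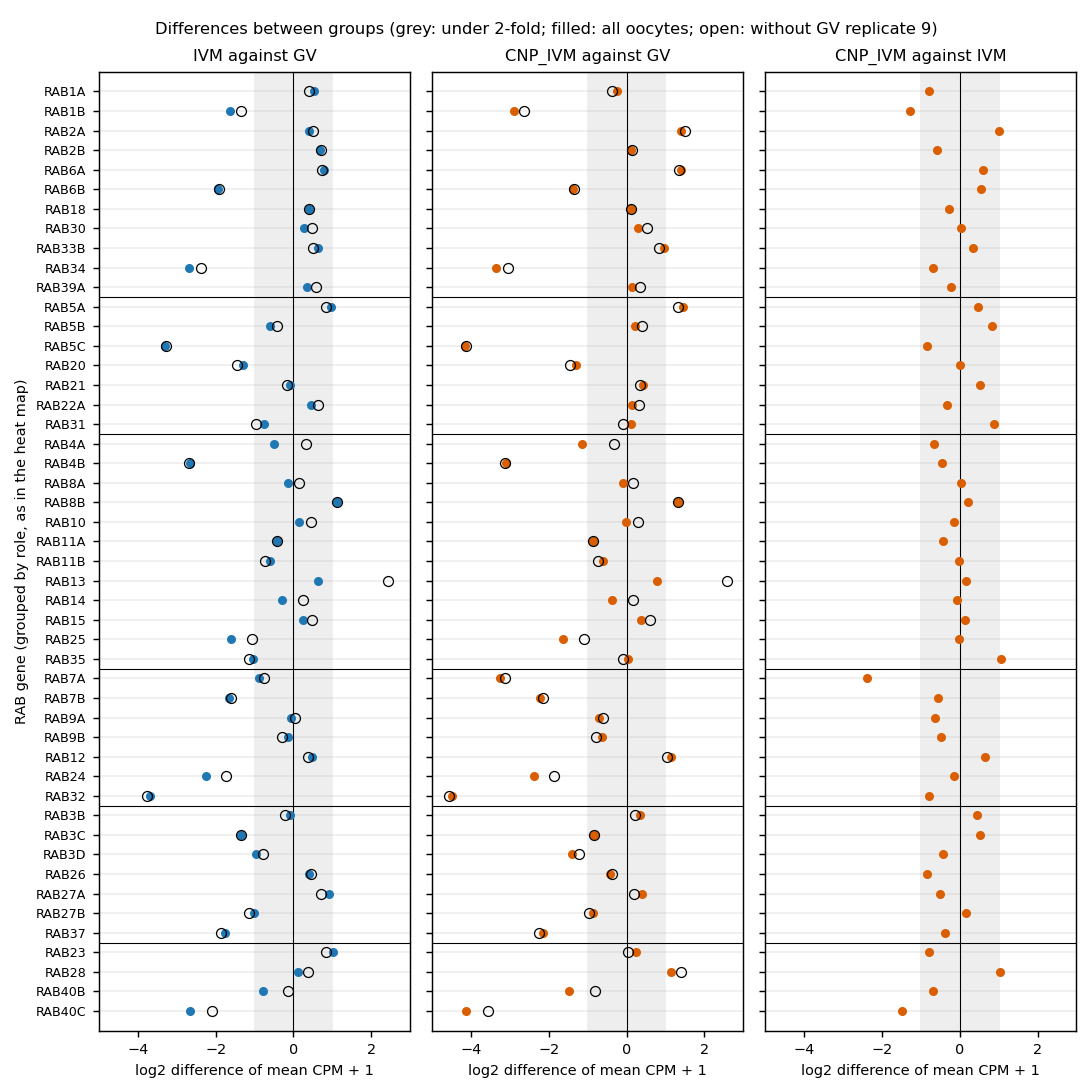
Log2 difference of group means (CPM + 1) for the 48 RAB genes, in role order, for IVM against GV, CNP_IVM against GV and CNP_IVM against IVM. Filled points use all oocytes, open circles leave out GV replicate 9, and the grey band holds differences under 2-fold. RAB13 moves from 0.64 to 2.42 in IVM against GV without that oocyte, and RAB7A stands alone at -2.37 in CNP_IVM against IVM.

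Of the 12 genes of transport between endoplasmic reticulum and Golgi, the RAB1 and RAB6 pairs differed between their copies. RAB1A, which with RAB1B tethers vesicles that leave the endoplasmic reticulum, was at 46.2 to 137 CPM (median 111) in GV, 138 to 176 CPM (median 156) in IVM and 65.4 to 101 CPM (median 94.96) in CNP_IVM oocytes. Every IVM oocyte was above every GV and every CNP_IVM oocyte, with log2 differences of 0.54 from GV and -0.78 from IVM to CNP_IVM, both under 2-fold. GV replicate 9 was the lowest GV oocyte at 46.2 CPM. RefSeq places CEP68 across RAB1A, and since strand in the counting is not given in the sources used here, their reads may be mixed. CEP68 averaged 30.9, 12.5 and 5.36 CPM in GV, IVM and CNP_IVM. It was lower in IVM against GV (-1.24), where RAB1A was higher. In CNP_IVM against IVM both genes were lower, CEP68 at -1.08.

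RAB1B was at 8.08 to 30.5 CPM (median 12.1) in GV, 0.645 to 8.31 CPM (median 3.603) in IVM and 0.287 to 2.15 CPM (median 1.06) in CNP_IVM oocytes. It was lower in the cultured groups, with log2 differences of -1.62 in IVM and -2.90 in CNP_IVM against GV, and its CNP_IVM oocytes lay below all GV oocytes. GV replicate 9 held the highest value, and without it the differences were -1.35 and -2.63. Summed over the CNP_IVM oocytes it had 280 reads, so that its difference from IVM of -1.28 concerns a level near 1 CPM and was under 2-fold by quantile normalization, at -0.75.

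RAB6A, the RAB of carriers that leave the Golgi in both directions, was at 76.8 to 121 CPM (median 104) in GV, 135 to 254 CPM (median 176) in IVM and 165 to 365 CPM (median 294) in CNP_IVM oocytes. Each cultured group lay above all GV oocytes, with log2 differences of 0.79 after IVM and 1.40 after CNP_IVM, and the cultured groups overlapped. The IVM difference of RAB6A was past 2-fold with TMM factors, at 1.04, and was 0.98 by quantile normalization. RAB6B, its close relative best known from neurons, was at 15.6 to 42.2 CPM (median 26.5) in GV, 3.81 to 8.48 CPM (median 5.69) in IVM and 2.75 to 19.8 CPM (median 7.27) in CNP_IVM oocytes. Here IVM oocytes lay below all GV oocytes (log2 difference -1.93), and CNP_IVM oocytes overlapped both other groups (-1.38 against GV). The CNP_IVM difference of RAB6B was under 2-fold with TMM factors, at -0.85, and by quantile normalization, at -0.55.

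RAB2A, which acts at the Golgi and in fusion with lysosomes, was at 41.1 to 80.4 CPM (median 48.5) in GV, 58.4 to 102 CPM (median 68.9) in IVM and 75.6 to 244 CPM (median 129) in CNP_IVM oocytes. Its CNP_IVM mean was the highest, 1.40 above GV and 1.00 above IVM in log2, with overlap in both. Leaving out GV replicate 9, which was the highest GV oocyte, ended the overlap with GV. RAB2B, its paralog, was at 139.7 to 198 CPM in GV, 222 to 321 in IVM and 146 to 212 in CNP_IVM oocytes, and only the IVM oocytes lay apart from the other groups, above both.

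RAB34, a Golgi and cilium RAB, was at 3.36 to 25.8 CPM (median 9.15) in GV, 0 to 3.596 CPM (median 0.0901) in IVM and 0 to 0.844 CPM (median 0) in CNP_IVM oocytes. No read of it was counted in 3 IVM and 4 CNP_IVM oocytes, and summed reads were 2674, 255 and 63 in the 3 groups. The log2 differences were -2.68 and -3.36 against GV, or -2.38 and -3.06 without GV replicate 9. The other genes of this group were under 2-fold in every comparison, RAB33B only just in CNP_IVM against GV (0.97, and 1.00 to 1.14 without any one of GV replicates 2, 3, 6 and 7 or CNP_IVM replicates 1, 2 and 4). Means in GV, IVM and CNP_IVM were 45.98, 60.6 and 50.2 CPM for RAB18 (endoplasmic reticulum and lipid droplets), 109.6, 132 and 136 CPM for RAB30 (Golgi), 1.59, 3.01 and 4.09 CPM for RAB33B (Golgi and autophagy) and 3.43, 4.68 and 3.88 CPM for RAB39A. RAB39B, which did not pass the filter, averaged 1.01, 0.301 and 0.1402 CPM.

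Among the 7 genes of early endosomes and internalisation, RAB5C was lower and RAB5A higher in the cultured groups. RAB5 proteins drive fusion of incoming vesicles, and its copies are known to act alike in many cells. RAB5C was at 102 to 156 CPM (median 123) in GV, 4.32 to 20.2 CPM (median 12.4) in IVM and 2.91 to 9.93 CPM (median 6.303) in CNP_IVM oocytes. All cultured oocytes lay far below all GV oocytes, with log2 differences of -3.30 after IVM and -4.15 after CNP_IVM, and reads summed over the GV, IVM and CNP_IVM oocytes gave 126 CPM (125 to 128), 12.5 CPM (12.1 to 12.97) and 6.13 CPM (5.84 to 6.44). The bounds in parentheses are exact 95% Poisson limits and cover counting error only, since PCR copies of a molecule count as separate reads.

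RAB5A was at 4.44 to 16.002 CPM (median 12.9) in GV, 20.8 to 31.5 CPM (median 23.6) in IVM and 24.3 to 53.996 CPM (median 30.6) in CNP_IVM oocytes. All cultured oocytes lay above all GV oocytes, and the log2 difference was 0.97 after IVM, just under the 2-fold line (1.00 to 1.05, past it, without GV replicate 4, 6 or 7), and 1.44 after CNP_IVM. GV replicate 9 was the lowest at 4.44 CPM, and the differences without it were 0.84 and 1.31. The IVM difference was also past 2-fold with TMM factors, at 1.25, and by quantile normalization, at 1.48. RAB5B was at 28.4 to 80.8 CPM in GV, 20.5 to 48.04 in IVM and 19.7 to 108 in CNP_IVM oocytes, and all 3 groups overlapped.

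**Figure D3:**
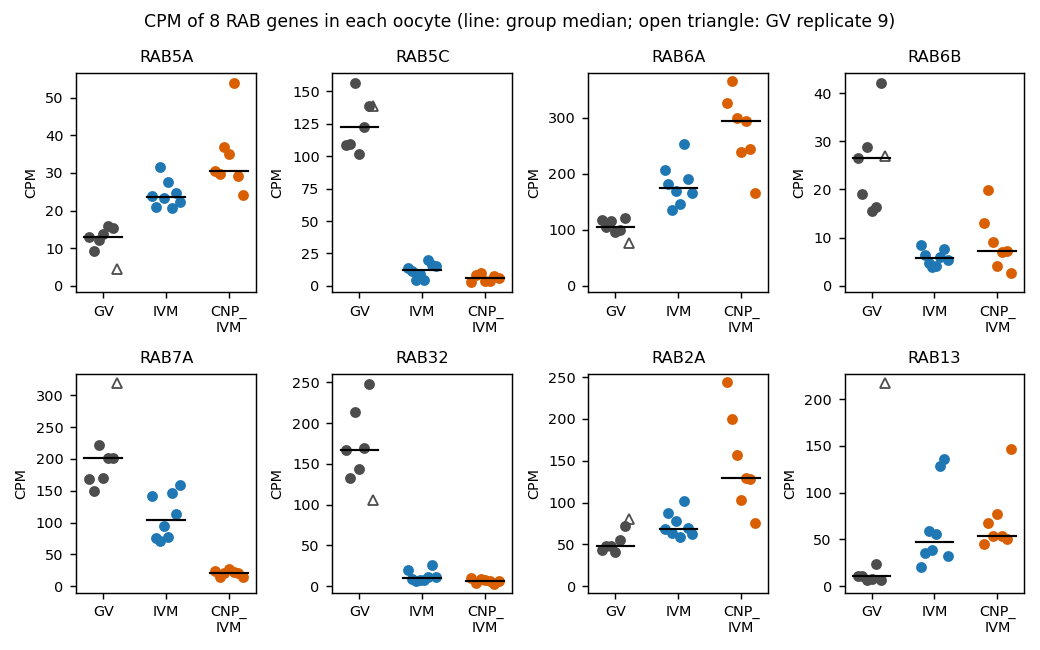
CPM of 8 RAB genes in each oocyte of the 3 groups, with a line at the group median and GV replicate 9 as an open triangle. Medians of RAB5A, RAB6A and RAB2A are lowest in GV and highest in CNP_IVM, RAB5C and RAB32 have medians of 12.4 and 9.43 CPM after IVM, RAB7A averages 20.4 CPM in CNP_IVM, and RAB13 has 1 GV oocyte at 217 CPM above the other 6.

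The remaining genes of early endosomes and internalisation were less far apart. Means in GV, IVM and CNP_IVM were 24.2, 22.6 and 32.7 CPM for RAB21 (integrin uptake), 130.2, 179 and 144 CPM for RAB22A (sorting in early endosomes) and 19.3, 10.95 and 20.9 CPM for RAB31 (Golgi to endosome), all under 2-fold. Without IVM replicate 3, RAB31 was past 2-fold in IVM against GV, at -1.06, and in CNP_IVM against IVM, at 1.17. It was at 0 in GV replicate 9 and at 16.6 to 28.8 CPM in the other GV oocytes, and without that oocyte the CNP_IVM difference from GV turned from 0.11 to -0.10. RAB20, a RAB of phagosomes and endosomes, averaged 2.11, 0.266 and 0.271 CPM. It was at least 2-fold lower in both cultured groups on that low level, and 6 of 7 CNP_IVM oocytes had no read of it. By quantile normalization it was under 2-fold in both, at -0.67 and -0.46.

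Among the 12 genes of recycling and delivery to the surface, RAB11A, the RAB of the slow recycling endosome, took the most reads of all RAB genes. It was at 1553 to 2291 CPM (median 1939) in GV, 1066 to 2058 CPM (median 1409.9) in IVM and 534 to 1415 CPM (median 1142) in CNP_IVM oocytes. On CPM the CNP_IVM oocytes lay below all GV oocytes, with a log2 difference of -0.87. IVM oocytes overlapped both groups (-0.42 against GV). Quantile normalization put the CNP_IVM difference past 2-fold, at -1.204, while TMM factors brought it to -0.31. The IVM difference was -0.70 by quantile normalization and -0.11 with TMM factors. RAB11B, its paralog, averaged 5.22, 3.096 and 3.07 CPM, and RAB25, the epithelial member of the same subfamily, was at 18.9 to 104 CPM (median 24.3) in GV, 2.38 to 17.9 CPM (median 11.1) in IVM and 3.502 to 17.7 CPM (median 10.6) in CNP_IVM oocytes. RAB25 was below all GV oocytes in both cultured groups, with log2 differences of -1.61 and -1.63, or -1.07 and -1.09 without GV replicate 9, whose 104 CPM was the highest. By quantile normalization the CNP_IVM difference was -0.85.

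RAB4B, of the fast recycling route, was at 10.8 to 25.3 CPM (median 14.5) in GV, 0.343 to 3.52 CPM (median 1.52) in IVM and 0.344 to 1.54 CPM (median 1.12) in CNP_IVM oocytes. Both cultured groups lay below all GV oocytes, with log2 differences of -2.66 and -3.10, and GV replicate 9 made no difference of note (-2.69 and -3.13 without it). Its paralog RAB4A averaged 7.19, 4.75 and 2.67 CPM, and that GV mean rested on GV replicate 9, at 28.9 CPM against 2.31 to 6.14 CPM in the other 6. Without it the log2 differences of RAB4A were 0.33 and -0.32, in place of -0.51 and -1.16, and the CNP_IVM difference was also under 2-fold with TMM factors, at -0.61, by quantile normalization, at -0.04, and by medians, at -0.31.

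RAB8B, which delivers vesicles from the Golgi to the surface, was at 5.52 to 17.2 CPM (median 11.3) in GV, 16.1 to 42.8 CPM (median 24.4) in IVM and 17.6 to 53.97 CPM (median 24.9) in CNP_IVM oocytes. Its CNP_IVM oocytes lay above all GV oocytes (log2 difference 1.32), and its IVM oocytes overlapped them (1.11). The IVM difference was under 2-fold without IVM replicate 9, at 0.98, the highest IVM oocyte at 42.8 CPM. RAB8A, its paralog, averaged 35.2, 31.9 and 32.7 CPM in GV, IVM and CNP_IVM, and RAB10, of the same subfamily, 211, 234 and 209.9 CPM. GV replicate 9 was the highest GV oocyte for both, at 72.8 and 438 CPM, and without it differences turned sign: for RAB8A from -0.14 and -0.10 to 0.14 and 0.17, and for RAB10 in CNP_IVM from -0.004 to 0.28.

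RAB35, which recycles receptors from early endosomes, was at 4.82 to 24.2 CPM (median 9.91) in GV, 3.16 to 7.64 CPM (median 5.33) in IVM and 5.13 to 28.4 CPM (median 9.696) in CNP_IVM oocytes. Its IVM mean was the lowest of the groups, -1.03 against GV, and CNP_IVM was 1.06 above IVM in log2, with overlap in both. Both calls sat at the line. The first was under 2-fold, at -0.998 to -0.78, without any one of GV replicates 1, 3 and 7 or IVM replicates 3, 5 and 7, and the second, at 0.74 to 0.99, without IVM replicate 5 or CNP_IVM replicate 1 or 2. The first was also under 2-fold with TMM factors, at -0.78, by quantile normalization, at -0.42, and by medians, at -0.78, and the second by medians, at 0.76. Against GV the CNP_IVM difference was 0.03, and -0.09 without GV replicate 9.

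RAB13, known from tight junctions and chosen for a closer description after its values were seen, was at 6.52 to 217 CPM (median 10.6) in GV, 20.8 to 136 CPM (median 47.3) in IVM and 45.4 to 146 CPM (median 53.4) in CNP_IVM oocytes. GV replicate 9 held 217 CPM and the other 6 GV oocytes 6.52 to 23.4 CPM. The log2 differences were 0.64 and 0.79 with all oocytes and 2.42 and 2.58 without GV replicate 9, when every CNP_IVM oocyte lay above every GV oocyte. RefSeq places a pseudogene within the span of RAB13, and how reads shared with it were counted is not given in the sources used here. Means of the last 2 genes of the group were 14.2, 11.3 and 10.7 CPM for RAB14 (Golgi and endosomes) and 31.5, 37.5 and 41.4 CPM for RAB15 (recycling endosomes), under 2-fold in every comparison. The GV mean of RAB14 rested on GV replicate 9, at 43.1 CPM. Without it that mean was 9.44 CPM, and the log2 differences turned from -0.31 and -0.38 to 0.24 and 0.17.

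Among the 8 late endosome and lysosome genes, RAB7A had the lowest log2 difference of any RAB gene in CNP_IVM against IVM. RAB7A, which brings late endosomes and autophagosomes to lysosomes, was at 150.0 to 319 CPM (median 201) in GV, 71.05 to 159 CPM (median 104) in IVM and 14.3 to 26.4 CPM (median 21.03) in CNP_IVM oocytes. Every CNP_IVM oocyte was below every IVM and every GV oocyte, with log2 differences of -2.37 and -3.26, and IVM overlapped GV (-0.89). Summed reads were 46280, 30161 and 5373, or 209 CPM (207 to 211), 114 CPM (113 to 115) and 20.5 CPM (19.9 to 21.01). Of all genes past the filter, 0.46% had a log2 difference at or below that of RAB7A in CNP_IVM against IVM. The difference from IVM stayed between -2.44 and -2.28 with each oocyte left out and was -2.08 with TMM factors and -2.01 by quantile normalization.

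RAB7B, a more distant relative that acts between late endosomes and the Golgi, was at 30.9 to 58.5 CPM (median 46.4) in GV, 3.74 to 20.5 CPM (median 14.1) in IVM and 3.44 to 17.999 CPM (median 8.53) in CNP_IVM oocytes. It was below all GV oocytes in both cultured groups, with log2 differences of -1.67 and -2.23, and differed by -0.56 between them, with overlap. RAB32, of melanosomes and other lysosome-related organelles, was at 106 to 248 CPM (median 167) in GV, 5.94 to 26.2 CPM (median 9.43) in IVM and 2.81 to 9.51 CPM (median 6.44) in CNP_IVM oocytes. It had the lowest log2 differences of the family, -3.69 after IVM and -4.49 after CNP_IVM, with every cultured oocyte below every GV oocyte. Between the cultured groups it differed by -0.80, with overlap.

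RAB24, linked to autophagy, was at 13.001 to 90.1 CPM (median 21.9) in GV, 1.14 to 12.99 CPM (median 3.86) in IVM and 1.84 to 9.56 CPM (median 3.78) in CNP_IVM oocytes. Both cultured groups lay below all GV oocytes, with log2 differences of -2.24 and -2.39, or -1.72 and -1.87 without GV replicate 9 and its 90.1 CPM. NSD1, which RefSeq places across RAB24, was higher after IVM, at 4.94, 13.3 and 9.77 CPM on average. RAB9A and RAB9B return receptors from late endosomes to the Golgi. RAB9A averaged 249, 238 and 152 CPM in GV, IVM and CNP_IVM, and RAB9B 1.81, 1.54 and 0.808 CPM, both under 2-fold. The IVM difference of RAB9A turned from -0.07 to 0.03 without GV replicate 9. RAB12, which steers receptors to lysosomes, averaged 0.768, 1.47 and 2.91 CPM, a log2 difference of 1.14 in CNP_IVM against GV that was 0.91 without CNP_IVM replicate 2. RAB29 did not pass the filter and averaged 0.585, 0.313 and 0.151 CPM.

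Of the 8 genes of regulated secretion, RAB3A was barely read and RAB3C was the RAB3 gene with the most reads. RAB3A, of synaptic vesicles and cortical granules, was at 0 to 1.52 CPM (median 0.313) in GV, 0 to 1.02 CPM (median 0.237) in IVM and 0 to 0.358 CPM (median 0.0523) in CNP_IVM oocytes. Over all 22 oocytes its summed reads were 104, 102 and 24 per group, and no difference is read from them. RAB3C was at 168 to 229 CPM (median 184) in GV, 48.2 to 101 CPM (median 75.7) in IVM and 83.98 to 128 CPM (median 108) in CNP_IVM oocytes. Both cultured groups lay below all GV oocytes, with log2 differences of -1.34 after IVM and -0.83 after CNP_IVM, and GV replicate 9, at 184 CPM, was within the range of the others. RAB3D, of secretory granules in glands, was at 5.43 to 18.9 CPM (median 10.8) in GV, 1.37 to 10.5 CPM (median 4.89) in IVM and 1.32 to 6.06 CPM (median 3.26) in CNP_IVM oocytes, with log2 differences of -0.96 and -1.39 and overlap in both. The first was past 2-fold, at -1.16 to -1.02, without GV replicate 2 or 7 or IVM replicate 9. The second was under 2-fold with TMM factors, at -0.90, and by quantile normalization, at -0.33. RAB3B averaged 1.41, 1.28 and 2.08 CPM, under 2-fold throughout.

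RAB27A, which docks granules at the surface, was at 3.62 to 71.4 CPM (median 60.6) in GV, 72.6 to 129 CPM (median 104) in IVM and 31.8 to 115 CPM (median 66.6) in CNP_IVM oocytes. IVM oocytes lay above all GV oocytes, with a log2 difference of 0.91, and CNP_IVM oocytes overlapped both groups (0.39 against GV). GV replicate 9 was far under the other GV oocytes, and without it the differences were 0.70 and 0.19. The IVM difference was past 2-fold with TMM factors, at 1.18, and by quantile normalization, at 1.13. RAB27B, its paralog, was at 48.1 to 166 CPM (median 103) in GV, 31.1 to 70.99 CPM (median 51.7) in IVM and 42.4 to 71.04 CPM (median 59.6) in CNP_IVM oocytes, the other way round: IVM was -1.02 and CNP_IVM -0.85 against GV, with overlap that ended in both without GV replicate 9. The IVM difference sat at the line and was under 2-fold, at -0.98 to -0.87, without any one of GV replicates 2 and 4 or IVM replicates 1, 8 and 9, and at -0.72 with TMM factors, -0.79 by quantile normalization and -0.99 by medians. RAB26, of granule maturation, averaged 17.3, 22.97 and 12.5 CPM, under 2-fold. RAB37, of mast cell granules, averaged 4.603, 0.663 and 0.269 CPM, and lay below all GV oocytes in CNP_IVM (-2.14), on summed reads of 1015 in GV and 70 in CNP_IVM. CD300LF, which RefSeq places across RAB37, was also lower after culture, at 4.35, 1.71 and 0.782 CPM.

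The last 4 genes act in cilia or in ubiquitin ligases. RAB28, of cilia and photoreceptor turnover, was at 5.18 to 22.3 CPM (median 8.35) in GV, 5.85 to 15.2 CPM (median 10.4) in IVM and 16.8 to 29.6 CPM (median 26.4) in CNP_IVM oocytes. All CNP_IVM oocytes lay above all IVM oocytes, with a log2 difference of 1.03, and this was under 2-fold, at 0.94 to 1.00, without any one of IVM replicates 1, 3, 8 and 10 or CNP_IVM replicates 3 and 5. RAB23, an inhibitor of Hedgehog signalling, was at 0 to 8.56 CPM (median 4.23) in GV, 7.03 to 17.2 CPM (median 9.91) in IVM and 4.95 to 7.73 CPM (median 5.304) in CNP_IVM oocytes. The IVM mean was the highest, with overlap with both other groups. In log2 it was 1.02 above GV, and 0.84 without GV replicate 9, which had no read of RAB23. The call was also lost, at 0.90 to 1.00, without any one of GV replicates 1, 3 and 4 or IVM replicates 1, 3 and 9. RAB40C, a subunit of a cullin ubiquitin ligase, was at 13.98 to 96.8 CPM (median 21.8) in GV, 0.0992 to 11.5 CPM (median 2.62) in IVM and 0.08403 to 1.95 CPM (median 0.745) in CNP_IVM oocytes. It was below all GV oocytes in both cultured groups, with log2 differences of -2.66 and -4.13, or -2.09 and -3.56 without GV replicate 9. Against IVM it was -1.47 in CNP_IVM, -0.90 by quantile normalization. RAB40B averaged 3.24, 1.46 and 0.526 CPM, and its differences of -0.78 in IVM and -1.48 in CNP_IVM were -0.13 and -0.82 without GV replicate 9. By quantile normalization the second was -0.54.

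Ratios of 2 paralogs within the same oocyte were compared between groups for 15 pairs, each gene with 1 CPM added. A ratio with nothing added is free of library size, while the added CPM draws it toward 0 where both genes are near 1 CPM. The 12 pairs with a read of both genes in every oocyte lay apart or overlapped in the same comparisons with nothing added, a check chosen after the data were seen. Of these pairs, RAB5A to RAB5C had the widest shift of medians against GV, 3.91 after IVM and 4.92 after CNP_IVM. The log2 ratio of RAB5A to RAB5C had a median of -3.11 (-4.68 to -2.81) in GV, 0.80 (0.04 to 2.61) in IVM and 1.82 (1.71 to 3.45) in CNP_IVM oocytes. It was below 0 in every GV oocyte and above 0 in every cultured oocyte. RAB5B to RAB5C went the same way, with medians of -1.60 (-1.93 to -0.77) in GV, 1.2996 (0.89 to 2.04) in IVM and 2.96 (1.50 to 4.42) in CNP_IVM oocytes. Both pairs share RAB5C, and RAB5B alone overlapped in all groups, so the second pair is no separate evidence. Since a CPM is not divided by transcript length, the sign of a ratio is no order of molecules, and only its shift between groups is read.

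RAB6A to RAB6B had a median of 2.10 (1.48 to 2.56) in GV, 4.66 (4.46 to 5.19) in IVM and 4.89 (4.14 to 5.56) in CNP_IVM oocytes, and RAB1A to RAB1B one of 3.18 (0.58 to 3.42) in GV, 5.09 (4.13 to 6.61) in IVM and 5.48 (4.83 to 6.22) in CNP_IVM oocytes. In these 4 pairs all IVM and all CNP_IVM oocytes lay above all GV oocytes, and leaving out GV replicate 9 ended none of these separations. For RAB27A to RAB27B the same was true of IVM only, with medians of -0.84 (-3.41 to -0.39) in GV, 1.09 (0.61 to 1.58) in IVM and 0.29 (-1.13 to 1.05) in CNP_IVM oocytes. RAB7A to RAB7B was at 2.09 (1.64 to 2.81) in GV, 2.83 (2.12 to 3.93) in IVM and 0.97 (0.27 to 2.63) in CNP_IVM oocytes, and overlapped in all 3 comparisons. RAB40B to RAB40C was at -3.14 (-3.65 to -2.31) in GV, -0.35 (-2.28 to 0.11) in IVM and -0.32 (-1.38 to 0.47) in CNP_IVM oocytes, but both genes were at or under 1.95 CPM in all CNP_IVM oocytes and 3 oocytes had no read of one of them, so that the added CPM sets much of this ratio and no shift is read from it. The other 8 pairs overlapped in each comparison, and none of the 15 pairs separated CNP_IVM from IVM. The share of separated pairs over all genes was not computed, so their number is not read as a result about RAB genes. For RAB4A to RAB4B the overlap with GV rested on GV replicate 9, at 1.01, where the other 6 GV oocytes were at -2.23 to -1.74 and all cultured oocytes at -0.16 or above.

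**Figure D4:**
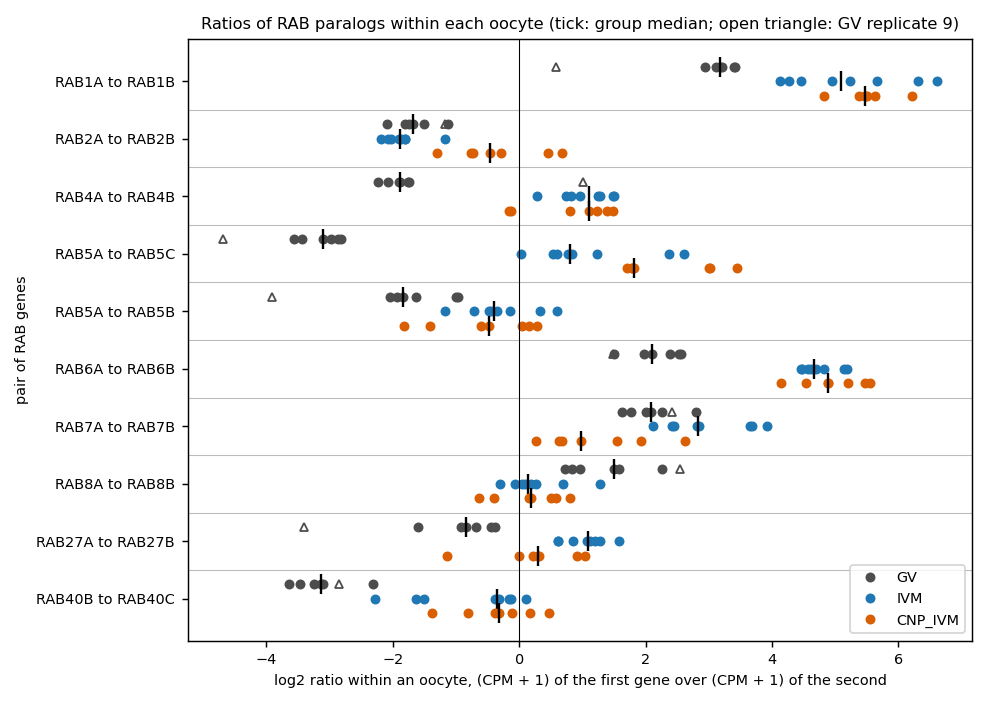
Log2 ratio of (CPM + 1) of 2 paralogs within each oocyte for 10 pairs, with a tick at each group median and GV replicate 9 as an open triangle. For RAB5A to RAB5C the GV oocytes end at -2.81 and the cultured oocytes start at 0.04, and RAB6A to RAB6B and RAB1A to RAB1B are also set apart, while RAB7A to RAB7B is lowest in CNP_IVM with overlap.

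Oocytes of a group differed less from each other for RAB genes once GV replicate 9 was set aside. Over genes with a group mean of at least 10 CPM, the coefficient of variation between oocytes had a median of 36.9% in GV (37 genes), 20.6% in GV without replicate 9 (33 genes), 30.6% in IVM (30 genes) and 33.3% in CNP_IVM (27 genes). The least variable were RAB3C in GV (12.2%), RAB1A in IVM (9.61%) and RAB30 in CNP_IVM (11.7%), and RAB13 varied most in GV (193%) and IVM (70.3%). Of the 48 genes, GV replicate 9 lay above the range of the other 6 GV oocytes for 22 (background 33.3%) and below it for 16 (background 46.4%).

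The genes that act on RAB proteins were counted from 5 lists of 172 genes, of which 159 were in the table and 153 passed the filter. After IVM 40 were at least 2-fold higher, 26.1% of them where 15.9% of all genes were, and 44 lower, 28.8% where 33.0% of all genes were. After CNP_IVM 28 were higher (18.3%, background 15.3%) and 61 lower (39.9%, background 42.0%). Without GV replicate 9 these counts were 33 and 40 (backgrounds 16.4% and 31.7%) and 23 and 59 (backgrounds 14.9% and 40.5%). Between CNP_IVM and IVM 2 were higher (1.31%, background 1.86%) and 16 lower (10.5%, background 14.8%). Medians were -0.12, -0.41 and -0.38 in the 3 comparisons, beside -0.28, -0.61 and -0.28 over all genes, and without GV replicate 9 the first of them turned to 0.07 and the second was -0.20.

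Of 10 genes for prenylation, GDI and chaperones, 2 were higher and 4 lower after IVM (backgrounds 15.9% and 33.0%), and 2 and 5 after CNP_IVM (backgrounds 15.3% and 42.0%), too few genes for a share to say much. These counts were the same without GV replicate 9 (backgrounds 16.4% and 31.7%, and 14.9% and 40.5%). CHM, the escort protein that presents new RABs for prenylation, averaged 10.01, 28.7 and 32.9 CPM in GV, IVM and CNP_IVM. RABGGTA, the alpha subunit of the enzyme that adds the prenyl groups, went the other way at 10.7, 1.42 and 0.553 CPM. Its GV mean was 6.53 CPM without GV replicate 9, and its log2 differences were then -1.64 and -2.28 in place of -2.27 and -2.91. RABAC1, which helps to release RABs from GDI, was at 48.4, 10.4 and 2.58 CPM, and GDI2, the widely expressed dissociation inhibitor, at 419, 617 and 305 CPM.

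Of 48 exchange factor genes, 13 were higher and 11 lower after IVM, 27.1% and 22.9% where all genes had 15.9% and 33.0%. After CNP_IVM 5 and 18 were, 10.4% and 37.5% where all genes had 15.3% and 42.0%. Without GV replicate 9 these counts were 9 and 10 (backgrounds 16.4% and 31.7%) and 6 and 19 (backgrounds 14.9% and 40.5%). CCZ1, a subunit of the complex that activates RAB7, was higher in both cultured groups, at 135, 430.3 and 411 CPM, where RAB7A was lower in CNP_IVM. The MON1 genes of the same list did not all go with CCZ1. Log2 differences after IVM and CNP_IVM against GV were -2.24 and -2.30 for MON1A and 0.95 and -0.95 for MON1B. In CNP_IVM against IVM MON1B was at -1.90. Subunits of the TRAPP complexes, which activate RAB1 and RAB11, split: TRAPPC2 averaged 199, 432 and 669 CPM and TRAPPC6B 11.2, 29.6 and 40.5 CPM, while TRAPPC5 averaged 199, 5.34 and 2.504 CPM and TRAPPC4 55.6, 7.803 and 4.83 CPM. TRAPPC5 had the lowest log2 difference of all listed genes, -4.98 after IVM and -5.84 after CNP_IVM. RGP1, part of the exchange factor of RAB6A, was at 38.5, 4.76 and 2.24 CPM, opposite to RAB6A itself. RIC1 of the same list went the way of RAB6A, with log2 differences of 1.27 after IVM and 0.80 after CNP_IVM against GV.

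Of 34 genes for GTPase-activating proteins, 8 were higher and 11 lower after IVM, 23.5% and 32.4% beside 15.9% and 33.0% of all genes. The lower shares were near those of all genes in both cultured groups, since after CNP_IVM 10 were higher and 14 lower, 29.4% and 41.2% beside 15.3% and 42.0%. Without GV replicate 9 these counts were 7 and 10 (backgrounds 16.4% and 31.7%) and 8 and 13 (backgrounds 14.9% and 40.5%). USP6NL, which acts on RAB5, was at 55.9, 236 and 222 CPM, and TBC1D15, which acts on RAB7, at 65.2, 230.0 and 196 CPM. TBC1D20, which acts on RAB1, was at 46.5, 4.43 and 3.72 CPM. TBC1D10B, which acts on RAB27A among others, was at 44.7, 10.6 and 2.18 CPM and had a log2 difference of -1.86 in CNP_IVM against IVM. TBC1D19 was the higher gene of the list in that comparison with the most reads, at 50.8, 57.8 and 121 CPM.

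Of 55 effector and motor genes, 16 were higher and 14 lower after IVM, 29.1% and 25.5% against backgrounds of 15.9% and 33.0%. After CNP_IVM 11 were higher and 21 lower, 20% and 38.2% against backgrounds of 15.3% and 42.0%. Without GV replicate 9 these counts were 14 and 12 (backgrounds 16.4% and 31.7%) and 7 and 19 (backgrounds 14.9% and 40.5%). EXOC5, a subunit of the exocyst that tethers vesicles at the surface, was at 32.7, 146 and 169.7 CPM, and SYTL2, an effector of RAB27, at 124, 364 and 254 CPM. GCC2, a Golgi tether that binds several RABs, was at 117, 308 and 370.1 CPM, while GCC1, another Golgi tether, was at 25.5, 3.59 and 1.84 CPM, with a GV mean of 16.9 CPM without GV replicate 9. MYO5B, the myosin motor that binds RAB11, averaged 97.2, 76.3 and 25.5 CPM. Its CNP_IVM oocytes, at 16.5 to 36.3 CPM, lay below all IVM oocytes, at 42.5 to 117 CPM. RABEP2, an effector of RAB4 and RAB5, was at 20.99, 6.28 and 1.86 CPM.

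Of 6 RAB-like small GTPases, 1 was higher and 4 lower after IVM (backgrounds 15.9% and 33.0%), and 0 and 3 after CNP_IVM (backgrounds 15.3% and 42.0%). These counts were the same without GV replicate 9 (backgrounds 16.4% and 31.7%, and 14.9% and 40.5%). IFT22 and IFT27, which travel with the transport trains of cilia, averaged 69.7, 13.6 and 8.09 CPM and 86.8, 20.3 and 5.805 CPM. RABL2B, another ciliary GTPase, averaged 175, 364 and 216 CPM.

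**Figure D5:**
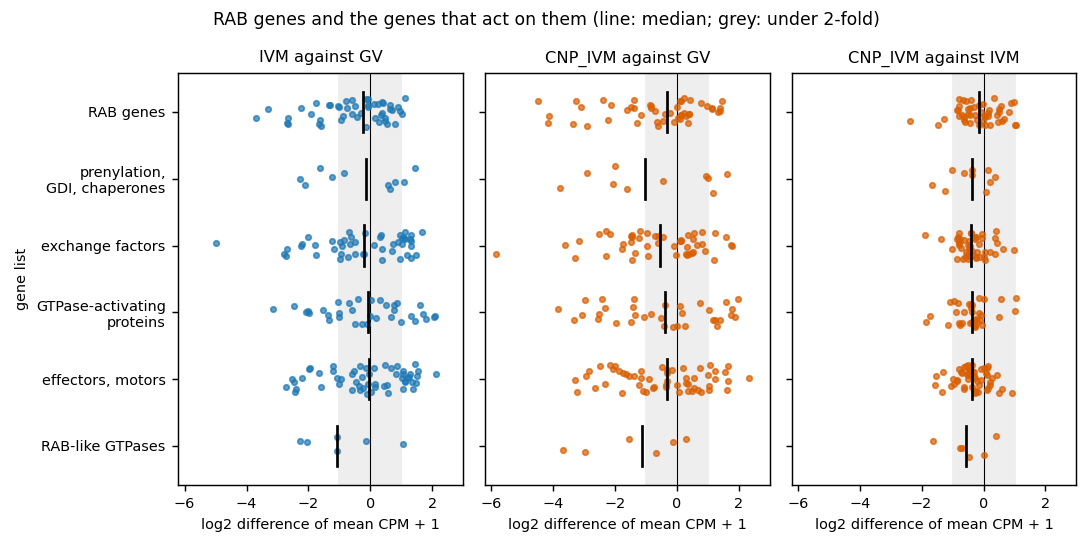
Log2 difference of group means (CPM + 1) for each RAB gene and for each gene of the 5 lists that act on RABs or resemble them, in the 3 comparisons, with a line at the median of each list and a grey band under 2-fold. Each list has genes on both sides of 0 against GV, and in CNP_IVM against IVM most points lie in the grey band, left of 0.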

How the data were processed

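The authors deposited 1 table of normalised values per oocyte. Its deposited values are CPM, although its name says TPM: within a library every value was a whole multiple of 1 read's worth, the same for all genes (100% of values within 0.01 read), so whole reads were recovered. No count model was run, because each group is 1 sample. Listed genes held 97.1 to 97.6% of the recovered reads. Per the submitters' processing notes, reads were handled with featureCounts 2.0.1, HISAT2 2.2.1, Trim Galore 0.6.7, edgeR and FastQC, in no stated order. The notes name the mouse build GRCm39, while gene names are cattle symbols, so no coordinates are given. All 51 RAB names matched symbols of RefSeq's cattle assembly ARS-UCD2.0, by whose spans 19 overlap another gene (3 with that gene in the table). How reads shared by paralogs, pseudogenes or overlapping genes were counted is not given in the sources used here.

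Of 29 labelled samples 22 had a column, matched by the column name in each description, and 7 were not analysed here. Groups come from the titles. Members, roles, 5 pathway lists and markers were chosen with earlier results of these data known. The filter, the log2 difference of mean CPM + 1 and the 2-fold line are given with the results, and the steps were tested on simulated data. Given in full are members with a group mean of at least 10 CPM and a 2-fold difference in any comparison, and RAB1A, RAB3A, RAB5A, RAB6A, RAB7A, RAB11A and RAB27A. Pathway genes named come from up to 3 per list and direction against GV, and up to 2 between the cultured groups, with a group mean of at least 10 CPM, at least 2-fold apart and the largest differences. MON1A, MON1B and RIC1 were named outside this rule, to be set beside CCZ1 and RGP1. Alternatives were pseudocounts of 0.1 and 5 CPM, no filter or 5 CPM in 6 oocytes, TMM factors (edgeR 4.0.16 in R 4.3.3), quantile normalization, medians over oocytes, and leaving out each oocyte. Recovered reads of any 2 oocytes of a group differed beyond sampling noise (chi-square over degrees of freedom of at least 38.0), so none was counted as a copy. Other steps used Python 3.11.15, pandas 2.3.3, numpy 2.4.6 and scipy 1.17.1.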

Additional observations from a re-analysis of the deposited data

Results flagged for a closer look

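In 28 of 153 sets of oocytes (51 genes in 3 groups) the highest or lowest oocyte lay apart by Dixon's 95% criterion. Chance alone meets it in about 1 of 20 independent sets of normally distributed values. The sets here share oocytes and some hold mostly zeros, so the 28 are not read against that rate. GV replicate 9 gave 16 of the 28. It was the highest GV oocyte for RAB1B (30.5 CPM), RAB4A (28.9), RAB7A (319), RAB8A (72.8), RAB10 (438), RAB13 (217), RAB14 (43.1), RAB15 (59.2), RAB24 (90.1), RAB25 (104), RAB30 (200), RAB39A (7.11), RAB40B (12.5) and RAB40C (96.8), all in CPM. It was the lowest for RAB27A (3.62 CPM) and RAB31 (0 CPM). Its title and its treatment label disagree.

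In the other GV oocytes, GV replicate 7 was the highest for RAB3A (1.52 CPM) and RAB4B (25.3 CPM), and GV replicate 6 for RAB9B (5.31 CPM). In IVM, replicate 7 was the highest for RAB3B (3.62 CPM), replicate 9 for RAB8B (42.8 CPM) and replicate 3 for RAB31 (26.7 CPM). In CNP_IVM, replicate 5 was the highest for RAB5A (54.0 CPM), RAB9B (2.99 CPM) and RAB20 (1.89 CPM), replicate 3 for RAB3A (0.358 CPM), replicate 2 for RAB11B (7.22 CPM) and replicate 7 for RAB13 (146 CPM). Several of these genes are near 1 CPM, where a single oocyte with reads sets the range.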

How the results depend on the processing

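No paired analysis was possible because the labels tie no replicate number to a donor, day or culture, and each group was 1 sample. No RAB gene past 2-fold changed sign under any alternative. Counts on the higher side, and between the cultured groups, were small and moved easily. With a pseudocount of 0.1 CPM, CNP_IVM against IVM had 6 RAB genes lower and 4 pathway genes higher and 31 lower. With 5 CPM, IVM against GV had 0 RAB genes higher and 27 pathway genes lower, and CNP_IVM against IVM had 0 RAB genes higher and 1 lower, and 1 pathway gene higher and 7 lower. TMM factors gave 6 RAB genes higher in IVM against GV, a RAB median of 0.25 in CNP_IVM against GV, and 5 RAB genes higher with 4 pathway genes higher and 10 lower in CNP_IVM against IVM. Quantile normalization gave 6 RAB genes higher and a median of 0.17 in IVM against GV; 12 higher, a median of 0.41, and 56 pathway genes higher and 33 lower in CNP_IVM against GV; and 6 RAB genes higher, 1 lower, a median of 0.17, and 5 pathway genes higher and 7 lower in CNP_IVM against IVM. Medians over oocytes gave 1 RAB gene higher and 5 lower in CNP_IVM against IVM. The median of the RAB genes thus changed sign with the scaling, and the cause was not tested.

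Leaving out each oocyte gave, in IVM against GV, 0 to 3 RAB genes higher and 14 to 15 lower, medians of -0.37 to -0.15, and 33 to 42 pathway genes higher and 39 to 49 lower. In CNP_IVM against GV these were 6 to 7, 14 to 16, -0.38 to -0.21, 23 to 30 and 59 to 63. In CNP_IVM against IVM they were 1 to 3, 3 to 3, -0.23 to -0.05, 1 to 4 and 10 to 19. The higher RAB genes of IVM against GV were 1 without GV replicate 1 or 3 or IVM replicate 1 or 3 and 0 without IVM replicate 9. The pathway genes lower in CNP_IVM against IVM were 10 without IVM replicate 8. Both filters left all 15 counts and medians within the limits set. RAB3A, RAB29, RAB39B, RAB20 and RAB34 were among the genes with no read in some oocytes, which limits what can be read from them. The part of depth in this was not tested.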
